A study of Homo sapiens with 3 samples.

Results

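The 10 genes described here are induced by ERK signalling, and most of them damp it: the dual-specificity phosphatases DUSP1, DUSP4, DUSP5, DUSP6 and DUSP7, the Ras-Raf inhibitors SPRY2, SPRY4 and SPRED1, and the ERK-responsive genes PHLDA1 and ETV4. They were taken by symbol from the deposited table, 1 transcript per gene (the one with the most counts over all libraries), and all 10 were present among 19225 gene symbols. RNA had been sequenced from 5637 cells, an established line grown from a human bladder carcinoma. The libraries were siCDCA3-1 and siCDCA3-2, from cells transfected with siRNA against CDCA3, and siNC, from cells transfected with the control siRNA. All 3 were labelled wild type and received the same lipid transfection reagent. The series was set up to look for genes downstream of CDCA3, a protein of the cell division cycle. siNC is a single library, and it is not stated whether the siCDCA3 libraries used different siRNA sequences or are repeats of one, so every value is given per library.

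ERK is the last kinase of a cascade that runs from growth factor receptors through Ras, Raf and MEK. Active ERK switches on transcription of its own brakes: DUSP proteins remove the activating phosphates from ERK, while Sprouty and Spred proteins act further up, on the path to Ras and Raf. Because these transcripts are short-lived and follow ERK activity, they are widely read as an index of pathway output, and receptor and Ras mutations that feed the cascade are common in bladder cancer. Phosphorylated ERK was not measured here, so the values below are transcript levels only.

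Most of the ERK feedback genes stood on opposite sides of siNC in the siCDCA3 libraries. In siCDCA3-1, 8 of the 10 were below siNC, against 58.6% of all genes tested, and in siCDCA3-2, 8 of the 10 were above it, against 54.4%. DUSP5, DUSP6, DUSP7, SPRY2, SPRY4 and SPRED1 had their lowest level in siCDCA3-1, an intermediate level in siNC and their highest level in siCDCA3-2. The share of all genes with that order was not counted, so the order only describes these genes. PHLDA1 and ETV4 were below siNC in both siCDCA3 libraries and DUSP1 and DUSP4 above it in both. None of the 9 that could be tested passed the test of siCDCA3 against siNC, in which edgeR called 0.0295% of all genes lower and 0% higher.

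Promoter sequence was at hand in the RefSeq table of GRCh38.p14 for 7 of the genes, DUSP1, DUSP6, DUSP7, PHLDA1, SPRED1, SPRY2 and SPRY4, with 9 start sites in all. The 250 bases before each start were searched on both strands for the ETS core CCGGAA, the AP-1 site TGANTCA, the cyclic AMP response element TGACGTCA and the CArG box of serum response factor, all of which can carry ERK or stress signals to a promoter. A window before the start of DUSP1 held the response element, one before PHLDA1 and one before SPRY2 held the ETS core, and the windows of DUSP6, DUSP7, SPRED1 and SPRY4 held none of the 4 motifs. Over 35116 windows of the same length the shares were 14.5% for the ETS core, 6.57% for AP-1, 1.65% for the response element and 1.16% for the CArG box. The 4 windows shown are those with a motif and, beside them, that of DUSP6, one of the genes that stood furthest apart between the siCDCA3 libraries. All lie on the minus strand of GRCh38 and read 5′ to 3′ towards the start, with the matched motif in capitals (in PHLDA1 the ETS core lies on the opposite strand).
DUSP1 (chr5:172771196-172771445): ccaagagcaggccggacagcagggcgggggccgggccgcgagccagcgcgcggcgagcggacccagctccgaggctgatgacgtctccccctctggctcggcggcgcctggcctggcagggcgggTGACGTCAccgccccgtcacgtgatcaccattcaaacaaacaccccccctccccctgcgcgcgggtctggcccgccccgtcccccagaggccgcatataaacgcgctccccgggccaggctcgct
DUSP6 (chr12:89352502-89352751): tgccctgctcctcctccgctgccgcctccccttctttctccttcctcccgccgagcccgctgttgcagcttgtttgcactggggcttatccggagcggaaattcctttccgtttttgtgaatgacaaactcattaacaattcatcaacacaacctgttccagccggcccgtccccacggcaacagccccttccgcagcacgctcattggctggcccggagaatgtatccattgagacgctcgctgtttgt
SPRY2 (chr13:80341127-80341376): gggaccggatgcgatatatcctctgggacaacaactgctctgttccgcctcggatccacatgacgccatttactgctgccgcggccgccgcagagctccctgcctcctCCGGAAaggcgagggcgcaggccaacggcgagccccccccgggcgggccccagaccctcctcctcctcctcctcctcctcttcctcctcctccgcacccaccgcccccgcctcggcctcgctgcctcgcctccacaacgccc
PHLDA1 (chr12:76031777-76032026): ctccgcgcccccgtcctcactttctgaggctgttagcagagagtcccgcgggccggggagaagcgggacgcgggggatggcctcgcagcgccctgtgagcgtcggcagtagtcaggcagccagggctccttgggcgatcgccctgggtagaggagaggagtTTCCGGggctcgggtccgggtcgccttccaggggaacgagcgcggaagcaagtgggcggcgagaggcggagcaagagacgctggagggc
The response element of DUSP1 began 125 bases before the start. The ETS core covered bases 142 to 137 before the start in SPRY2 and 89 to 84 in PHLDA1. The genes with the ETS core, SPRY2 and PHLDA1, were both below siNC in siCDCA3-1. In siCDCA3-2, SPRY2 was above siNC and PHLDA1 was below it.

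The gene-level counts were 40420563 in siCDCA3-1, 62389922 in siCDCA3-2 and 50912733 in siNC. CDCA3 itself stood at 10.4% of the siNC RPKM in siCDCA3-1 and 25.3% in siCDCA3-2. All 9 epithelial markers of the labelled cell type reached a mean RPKM of 1, with summed RPKM of 1995 in siCDCA3-1, 1665 in siCDCA3-2 and 2197 in siNC. None of 5 leukocyte and 4 endothelial markers did, and their sums were under 1 in every library. COL1A1 was the one of 6 fibroblast markers to do so, and the sum of the 6 was 10.0 in siCDCA3-1, 2.37 in siCDCA3-2 and 7.23 in siNC. Intervals given below are exact 95% binomial intervals on ratios of counts and cover counting error only, not the spread between cultures.

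Among the nuclear phosphatases, DUSP5 set the siCDCA3 libraries furthest apart. DUSP5, which acts on ERK alone (NM_004419.3, GRCh38 chromosome 10, 110497907 to 110511533), had RPKM of 2.07 in siCDCA3-1 and 10.1 in siCDCA3-2, against 3.09 in siNC. Relative to siNC, siCDCA3-1 was at 67.0% (60.3% to 74.5%) and siCDCA3-2 at 326% (304% to 350%), so siNC lay between the siCDCA3 libraries. DUSP4, which acts on ERK and JNK in the nucleus (NM_001394.6, chromosome 8, 29333064 to 29350684), had RPKM of 14.5 in siCDCA3-1 and 9.88 in siCDCA3-2, against 6.71 in siNC. Both siCDCA3 libraries were above siNC, at 216% (209% to 224%) and 147% (142% to 152%). DUSP1, an immediate early phosphatase of p38, JNK and ERK (NM_004417.3, chromosome 5, 172768096 to 172771195), had RPKM of 12.5 in siCDCA3-1 and 10.8 in siCDCA3-2, against 10.0 in siNC. Its 3 values lay closest together of all 10 genes, at 125% (119% to 132%) and 107% (102% to 113%) of siNC.

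The cytoplasmic phosphatases DUSP6 and DUSP7 shared 1 order of libraries. DUSP6, the ERK-selective phosphatase that is among the most direct readouts of the pathway (NM_001946.3, chromosome 12, 89347235 to 89352501), had RPKM of 3.12 in siCDCA3-1 and 12.8 in siCDCA3-2, against 7.18 in siNC. Its level was 43.4% of siNC in siCDCA3-1 (40.5% to 46.5%) and 179% in siCDCA3-2 (171% to 186%). DUSP7, a close relative of DUSP6 (NM_001947.3, chromosome 3, 52048919 to 52056571), had RPKM of 3.998 in siCDCA3-1 and 10.4 in siCDCA3-2, against 7.30 in siNC. For both genes siCDCA3-1 was low, siNC intermediate and siCDCA3-2 high. The exons of DUSP6 overlap an antisense RNA in the GENCODE annotation, and without strand the reads of the pair cannot be told apart.

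The Sprouty and Spred genes among the 10, SPRY2, SPRY4 and SPRED1, followed the same order. SPRY2, which restrains Ras activation by receptor tyrosine kinases (NM_005842.3, chromosome 13, 80335976 to 80341126), had RPKM of 3.40 in siCDCA3-1 and 9.11 in siCDCA3-2, against 4.35 in siNC, or 78.0% (71.4% to 85.3%) and 209% (196% to 223%) of siNC. SPRY4, its relative (NM_030964.3, chromosome 5, 142310430 to 142325021), was the lowest of the 10 genes, with RPKM of 0.204 in siCDCA3-1 and 1.70 in siCDCA3-2, against 0.858 in siNC. Those values rest on 106, 1367 and 559 counts in that order of libraries. SPRY4 was thus at 23.8% of siNC in siCDCA3-1 (19.1% to 29.3%) and 199% in siCDCA3-2 (180% to 220%). SPRED1, which recruits the Ras inactivator neurofibromin to the membrane (NM_152594.2, chromosome 15, 38252836 to 38357249), had RPKM of 0.896 in siCDCA3-1 and 2.22 in siCDCA3-2, against 1.45 in siNC. It stood at 62.0% (56.5% to 68.0%) of siNC in siCDCA3-1, between SPRY4 and SPRY2, and at 154% (144% to 164%) in siCDCA3-2, below both.

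PHLDA1 and ETV4 were below siNC in both siCDCA3 libraries, and further below in siCDCA3-1. PHLDA1, an ERK-induced protein with a pleckstrin homology-like domain (NM_007350.3, chromosome 12, 76025447 to 76031776), was the most abundant of the 10 genes per length, with RPKM of 17.6 in siCDCA3-1 and 30.5 in siCDCA3-2, against 44.8 in siNC. It stood at 39.4% (38.5% to 40.2%) and 68.0% (67.0% to 69.1%) of siNC. ETV4, an ETS transcription factor induced downstream of ERK (NM_001079675.2, chromosome 17, 43527846 to 43546340), had RPKM of 2.01 in siCDCA3-1 and 7.93 in siCDCA3-2, against 8.62 in siNC. It was low in siCDCA3-1, at 23.3% of siNC (21.1% to 25.6%), while siCDCA3-2 was at 92.0% (87.3% to 96.9%). PHLDA1 overlaps exons of 2 antisense RNAs and ETV4 overlaps exons of DHX8 on the opposite strand, so part of their counts may belong to those genes.

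**Figure D1:**
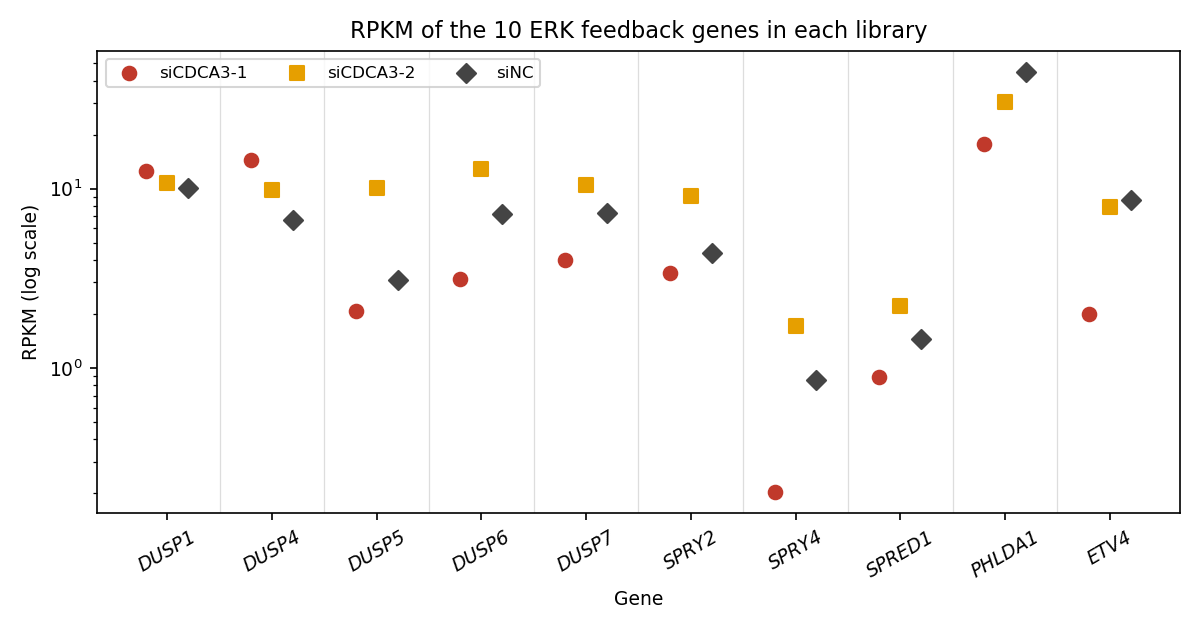
RPKM (log axis) of the 10 ERK feedback genes, with 1 point per library for siCDCA3-1, siCDCA3-2 and siNC. In DUSP5, DUSP6, DUSP7, SPRY2, SPRY4 and SPRED1 the siNC point lies between a lower siCDCA3-1 and a higher siCDCA3-2 point, as for DUSP6 at 3.12, 12.8 and 7.18.

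Differences in log2(RPKM + 1) place the 10 genes among the 10153 tested, those whose RPKM averaged at least 1 over the libraries. That scale understates the change of low genes such as SPRY4, which missed the minimum, while the other 9 passed it. In siCDCA3-1 the median difference from siNC was -0.52 over the 10 genes and -0.07 over all genes tested. ETV4 (-1.68) and PHLDA1 (-1.30) were at least 2-fold lower, a size reached by 1.74% of all genes. DUSP6 missed it at -0.99. DUSP4 was at least 2-fold higher at 1.01, a size reached by 0.847% of all genes.

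In siCDCA3-2 the median difference from siNC was 0.48 over the 10 genes and 0.05 over all genes tested. DUSP5, at 1.44, was the one gene at least 2-fold higher on this scale, a size reached by 1.42% of all genes, and SPRY2 followed at 0.92, although its RPKM was 209% of siNC. None was at least 2-fold lower, against 3.27% of all genes. Both sets of differences use the same siNC library. None of the 10 was at least 2-fold lower or 2-fold higher in both siCDCA3 libraries, where 0.719% and 0.0985% of all genes were.

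**Figure D2:**
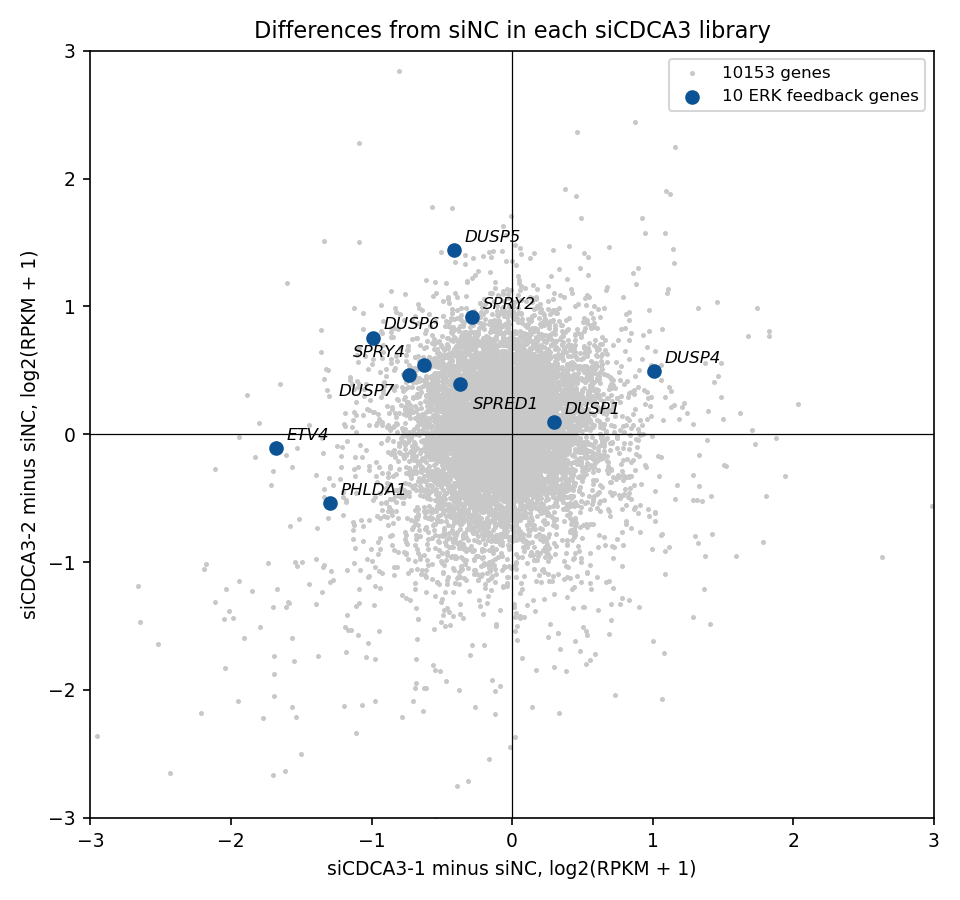
Difference from siNC in log2(RPKM + 1), siCDCA3-1 on the x axis and siCDCA3-2 on the y axis, for 10153 genes (grey) and the 10 ERK feedback genes (blue, named). The axes leave out 19 grey points. DUSP5, DUSP6, DUSP7, SPRY2, SPRY4 and SPRED1 lie at the upper left, for example DUSP6 at -0.99 and 0.76, and PHLDA1 and ETV4 at the lower left. The axes share the siNC library.

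Set against each other without siNC, the siCDCA3 libraries differed at most of these genes. The median difference of siCDCA3-1 from siCDCA3-2 was -1.18 over the 10 genes and -0.10 over all genes tested, and 8 of the 10 were lower in siCDCA3-1, against 57.8% of all genes. In siCDCA3-1, 6 of the 10 were at least 2-fold lower than in siCDCA3-2, namely DUSP5 (-1.85), DUSP6 (-1.75), ETV4 (-1.57), SPRY2 (-1.20), DUSP7 (-1.20) and SPRY4 (-1.17), a size reached by 4.90% of all genes. Of all genes tested, 0.2% had a lower difference than DUSP5, 0.3% than DUSP6 and 0.7% than ETV4. None of the 10 was at least 2-fold higher, against 3.72% of all genes, and DUSP4 and DUSP1 were above, at 0.51 and 0.21. On RPKM without a pseudocount, SPRY4 differed most, at 11.96% of its siCDCA3-2 level in siCDCA3-1 (9.72% to 14.6%). With TMM scaling the median over all genes moved to 0.02 and the shares of all genes to 3.25% lower and 4.78% higher, while the count for these genes stayed at 6 lower and 0 higher. Each side is 1 library, so no test of this difference was possible. CDCA3 RNA also differed between them, at RPKM of 0.574 in siCDCA3-1 and 1.40 in siCDCA3-2, and its part in these differences was not tested.

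The test of siCDCA3 against siNC called none of the 9 genes that passed the minimum. It was the quasi-likelihood test of edgeR, with Benjamini-Hochberg adjustment over all genes tested. PHLDA1 had a log2 fold change of -0.90 with a standard error of 0.52, DUSP4 one of 0.89 with a standard error of 0.54 and DUSP5 one of 0.94 with a standard error of 0.75. Every one of the 9 had an adjusted p of 0.9997 in edgeR, and none had an unadjusted p under 0.05 in edgeR, DESeq2 or limma (the lowest in edgeR was 0.1031, for PHLDA1). SPRY4 could be tested only with no minimum, where edgeR gave a log2 fold change of 0.03 with a standard error of 0.68 (adjusted p = 0.9999). Among the tested genes with siNC between the siCDCA3 libraries, the log2 fold change was 0.12 for DUSP6 (standard error 0.65), -0.03 for DUSP7 (0.57) and 0.09 for SPRED1 (0.61), while SPRY2 had 0.50 (0.62) and DUSP5 the larger value given above. The fit has 1 residual degree of freedom and takes siNC to vary as the siCDCA3 libraries do, so a high p does not show that a gene did not differ.

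Transcripts of the same gene gave closely similar ratios. Of the 10 genes, 5 had several RefSeq transcripts, 17 in all, and reads shared by transcripts had been counted for each, so they are not independent. Both DUSP6 transcripts were below siNC in siCDCA3-1 (41.7% and 43.4%) and above it in siCDCA3-2 (185% and 179%). The 4 SPRY2 transcripts ran from 78.0% to 80.1% of siNC in siCDCA3-1 and from 209% to 223% in siCDCA3-2, and the 4 SPRY4 transcripts from 23.3% to 23.8% and from 191% to 199%. All 5 ETV4 transcripts were low in siCDCA3-1, at 21.3% to 23.9% of siNC, and near siNC in siCDCA3-2, at 88.4% to 94.7%. The 2 DUSP4 transcripts were above siNC in both libraries.

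**Figure D3:**
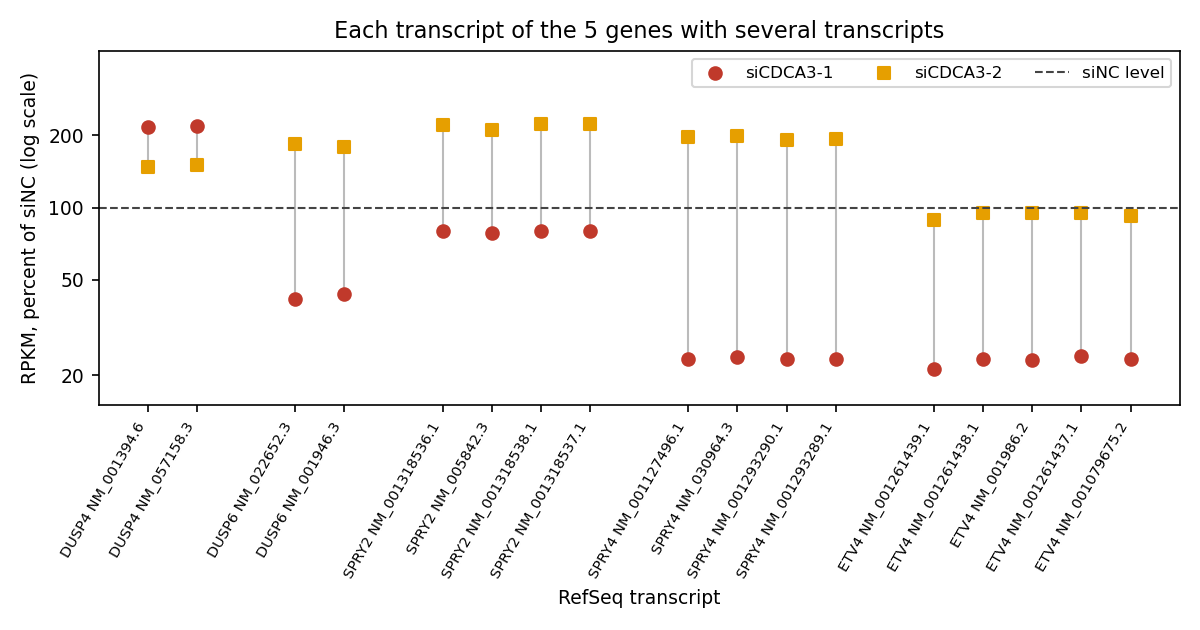
RPKM in siCDCA3-1 and siCDCA3-2 as a percent of siNC (log axis; dashed line, siNC level) for the 17 transcripts of the 5 genes with more than 1 transcript. Transcripts of a gene lie close together, and the siCDCA3 libraries fall on opposite sides of siNC for DUSP6, SPRY2 and SPRY4.

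Other transcripts that ERK is known to induce were mixed in their direction from siNC. Of 14 listed, 11 reached a mean RPKM of 1, with median differences from siNC of -0.64 in siCDCA3-1 and 0.19 in siCDCA3-2. In siCDCA3-1, 6 of the 11 were lower and 5 higher than siNC, and in siCDCA3-2, 5 were lower and 6 higher. Of all genes tested, 58.6% were lower in siCDCA3-1 and 54.4% were higher in siCDCA3-2. In siCDCA3-1, 5 of the 11 were at least 2-fold lower than siNC, against 1.74% of all genes: HBEGF, LIF, IER3, FOSL1 and CCND1. HBEGF, an EGF receptor ligand, had RPKM of 4.01 in siCDCA3-1 and 12.3 in siCDCA3-2, against 15.3 in siNC. LIF, a cytokine, had 3.70 and 11.8, against 13.3 in siNC. IER3, an early response gene and the most abundant of the list in siNC, had 32.9 and 89.6, against 96.8 in siNC. These 3 resembled ETV4 in being low in siCDCA3-1 and near siNC in siCDCA3-2.

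FOSL1 and CCND1, chosen after their values were seen, resembled DUSP5 and DUSP6 instead. FOSL1, an AP-1 subunit stabilised by ERK, had RPKM of 6.59 in siCDCA3-1 and 53.6 in siCDCA3-2, against 18.2 in siNC. CCND1, which encodes cyclin D1, had 2.34 and 33.6, against 6.12 in siNC. MYC, also chosen after its values were seen, had the same order of libraries, with 17.3 and 54.9, against 27.5 in siNC. FOSL1 and CCND1 were the 2 of the 11 at least 2-fold higher than siNC in siCDCA3-2, against 1.42% of all genes. PLAUR, the urokinase receptor, had 16.7 and 20.3, against 14.3 in siNC, and EGR1, an immediate early factor, had 19.3 and 21.0, against 18.2 in siNC. FOS, an immediate early AP-1 subunit also chosen after its values were seen, went the other way, with 28.6 and 12.7, against 23.8 in siNC. It was the 1 gene of the 11 at least 2-fold higher in siCDCA3-1 than in siCDCA3-2, against 3.72% of all genes. In the same comparison 6 were at least 2-fold lower, against 4.90%. The median difference of siCDCA3-1 from siCDCA3-2 was -1.41 over the 11 and -0.10 over all genes tested. Of the 11, 9 were lower in siCDCA3-1 and 2 higher, or 8 and 3 with TMM scaling. The edgeR test called none of the 11, and the lowest unadjusted p was 0.1327.

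The remaining MAP kinase phosphatases and Sprouty relatives had at most single-digit RPKM. Of DUSP2, DUSP8, DUSP9, DUSP10 and DUSP16, 4 reached a mean RPKM of 1. DUSP10, which acts on p38 and JNK and was the most abundant of them, had RPKM of 8.10 in siCDCA3-1 and 5.74 in siCDCA3-2, against 5.08 in siNC, the order seen for DUSP4. DUSP8 had 0.865 and 0.800, against 1.38 in siNC, and DUSP16 had 2.54 and 1.61, against 3.46 in siNC. DUSP2, a nuclear ERK phosphatase chosen after its values were seen, had 0.786 and 4.06, against 0.873 in siNC. Of SPRY1, SPRY3, SPRED2 and SPRED3, SPRED2 was the one to reach the minimum, with 2.30 and 3.55, against 4.48 in siNC. The edgeR test called none of these.

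Genes of the cascade itself lay closer to siNC. Of 20 adaptor, Ras, Raf, MEK, ERK and RSK genes, 19 reached the minimum, with median differences from siNC of -0.05 in siCDCA3-1 and 0.10 in siCDCA3-2, close to those of all genes. With TMM scaling the median in siCDCA3-1 was 0.02, and MAP2K2 was among 5 genes that changed sign. SHC1, an adaptor, had RPKM of 13.0 in siCDCA3-1 and 10.5 in siCDCA3-2, against 15.2 in siNC, and GRB2, another adaptor, had 25.4 and 27.6, against 29.1 in siNC. RPS6KA3, which encodes the ERK substrate RSK2, had 6.90 and 12.1, against 5.79 in siNC. MAP2K2, which encodes MEK2 and was the most abundant, had 77.6 and 48.7, against 80.0 in siNC. The edgeR test called none of the 19, and the lowest unadjusted p was 0.2076.

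**Figure D4:**
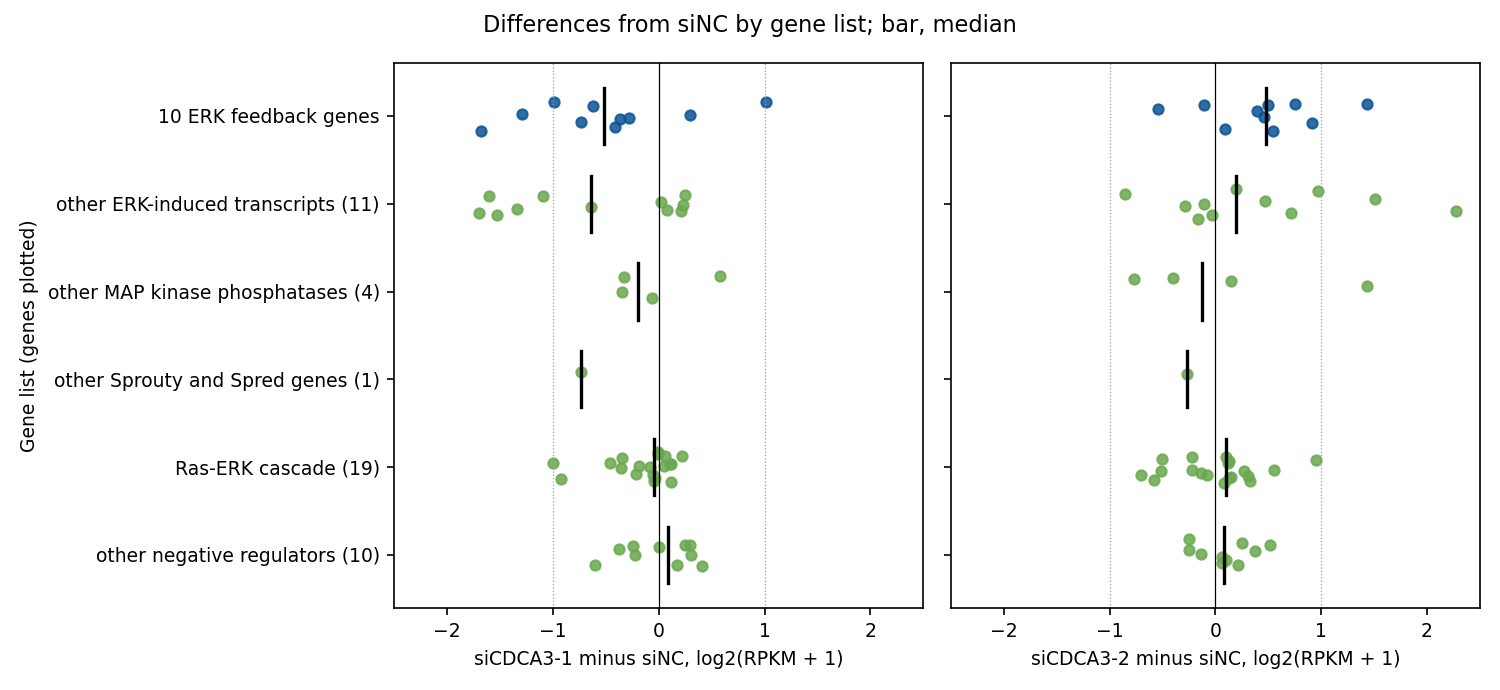
Difference from siNC in log2(RPKM + 1) for the 10 ERK feedback genes and, with a mean RPKM of at least 1, the genes of 5 related lists, in siCDCA3-1 (left) and siCDCA3-2 (right). Each point is a gene, bars are medians and dotted lines mark a 2-fold difference. The bar of the 10 genes lies at -0.52 on the left and 0.48 on the right, while those of the cascade genes lie at -0.05 and 0.10.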

How the data were processed

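RNA of 3 libraries was measured by sequencing after removal of ribosomal RNA, per the labels' protocols. Per the submitters' processing notes, Trimmomatic 0.36, FastQC, HISAT2 and HTSeq were used. Human and mouse builds are listed there without a role, and 98.6% of accessions matched human RefSeq. The deposited table holds an unnormalised read count for each RefSeq transcript, per the file headers. It also gives RPKM, which the authors computed from each count, the transcript length and 1 total per library. The library kit and counting are not stated to use strand.

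The transcript with the most counts stood for each gene, since summing would count shared reads repeatedly. Of 103 transcript rows whose symbol a spreadsheet had turned into a date, 102 had it restored from the accession. The test was edgeR 4.0.16 (R 4.3.3), TMM scaling and a quasi-likelihood fit of siCDCA3 (2 libraries) against siNC (1), two-sided, with an adjusted p threshold of 0.05 over 10153 genes, those with RPKM averaging at least 1. A standard error is the size of the log2 fold change divided by the square root of F. Nothing states that the libraries came from separate cultures, so p-values measure the spread between libraries, which may be technical. Size comparisons used log2(RPKM + 1). The fits were tested on simulated data with larger changes than those of the genes described and less spread than was fitted here. That test does not show how well changes of their size would be found. DESeq2 1.42.0, limma 3.58.1, other scalings, minimums and pseudocounts, the longest transcript and each siCDCA3 library left out were alternatives.

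The 10 genes and the related lists were chosen with earlier results of these data known. From each related list the rule names, in each direction, the 2 genes with the largest difference shared by both siCDCA3 libraries, and the gene most abundant in siNC. The values of some genes of these lists are not reported here.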

Additional observations from a re-analysis of the deposited data

How the results depend on the processing

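Each of the 10 genes kept its direction from siNC in each siCDCA3 library, and between these libraries, with pseudocounts of 0.1 and 0.5, TMM and median-of-ratios scaling and the longest transcript. Over those alternatives the counts at least 2-fold lower or higher in both libraries stayed at 0. The count at least 2-fold lower in siCDCA3-1 alone was 2, but 3 with a pseudocount of 0.5 and 4 with 0.1. With 0.1 the count at least 2-fold higher in siCDCA3-2 was 2 in place of 1, and that at least 2-fold lower in siCDCA3-1 than in siCDCA3-2 was 7 in place of 6. In siCDCA3-1 DUSP4 was no longer 2-fold higher with its longest transcript. The number of genes edgeR called, 3, became 10 with DESeq2, 22 with no minimum, and 0 with limma or at a mean RPKM of at least 5. None of the 10 genes was among the calls in any of these, of which no minimum alone tested SPRY4. Limma, fitted to log2(RPKM + 1), put the log2 fold change of DUSP6 at -0.12, the mean of its differences of -0.99 and 0.76 from siNC. EdgeR, fitted to counts, gave 0.12. Leaving out 1 siCDCA3 library leaves no residual degree of freedom, so these are values with no test, and they changed sign. The log2 fold change ran from -0.49 (without siCDCA3-2) to 1.65 (without siCDCA3-1) for DUSP5, from -1.12 to 0.78 for DUSP6, from -0.79 to 0.46 for DUSP7, from -0.28 to 1.01 for SPRY2 and from -0.61 to 0.56 for SPRED1. PHLDA1, ETV4, DUSP1 and DUSP4 kept their direction, although ETV4 ran from -2.02 to -0.18 and DUSP1 from 0.04 to 0.41. No paired analysis was possible because siNC is a single library with no number of its own. Depth limits SPRY4 most, with 106 counts in siCDCA3-1.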

Other observations

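Other restraints on Ras and receptor signalling, a list of 11 genes of which 10 reached a mean RPKM of 1, lay near siNC in both siCDCA3 libraries. Their median difference in log2(RPKM + 1) was 0.09 in siCDCA3-1 and 0.08 in siCDCA3-2, and none differed 2-fold in either library. Few genes did: of all genes tested, 1.74% were at least 2-fold lower and 0.847% higher in siCDCA3-1. In siCDCA3-2 the shares were 3.27% and 1.42%. RASA3, a Ras GTPase-activating protein, had RPKM of 5.81 in siCDCA3-1 and 5.66 in siCDCA3-2, against 4.12 in siNC. RASAL2, another such protein, had 1.52 and 2.03, against 1.12 in siNC. NF1, which encodes neurofibromin, the partner of SPRED1, had 3.996 and 3.92, against 4.83 in siNC. LRIG1, which promotes turnover of EGF receptor family members, had 1.81 and 2.03, against 2.33 in siNC. PEBP1, a Raf inhibitor and the most abundant of the list, had 26.7 and 42.9, against 41.1 in siNC. The edgeR test called none of the 10, and the lowest unadjusted p was 0.2299.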
